A study of Mus musculus with 30 samples.

Results

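Messenger RNA levels of 9 ATP-binding cassette (ABC) transporters linked to the efflux of drugs were followed in a mouse B-cell lymphoma line and in lines selected from it for resistance. The members were chosen by name, as Abcb1a, Abcb1b, Abcb4, Abcc1, Abcc4, Abcc5, Abcg2, Abca2 and Abca3. Each was read from the probe set to which the array annotation gives that symbol alone. All 9 had exactly 1 such probe set, out of 19937 genes represented in the same way.

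Expression was measured on 30 Affymetrix Mouse Gene ST arrays, and every value is log2 expression, so a difference of 1 is a doubling. All cells carried the Eμ-Myc transgene, whose immunoglobulin enhancer directs Myc to the B lineage, and were Cdkn2a-/- on the C57BL/6J background. Parental cultures received 750 nM mafosfamide, a relative of the alkylating drug cyclophosphamide that needs no activation by the liver, and were sampled at 0 h (no drug, n = 5), 6 h (n = 4), 12 h (n = 4), 24 h (n = 5) and 48 h (n = 5). The resistant lines R100, R500, R1000 and R4000 were taken from an escalation of the dose to 100, 500, 1000 and 4000 nM, with 1 untreated array each, and R500, R1000 and R4000 had 1 further array each after 24 h at 750 nM. All parental cultures came from 1 lymphoma line, and the resistant lines were successive steps of a single escalation, so they are not independent derivations. All flasks also held irradiated Cdkn2a-/- mouse embryonic fibroblasts as feeders, whose RNA is part of each sample. In such mixed bulk RNA, a change in RNA per lymphoma cell and a change in the share of another cell type cannot be told apart.

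ABC transporters use ATP to move lipids, conjugates and drugs across membranes. Abcb1a and Abcb1b encode the mouse forms of P-glycoprotein, a broad exporter of hydrophobic drugs, and Abcb4 encodes a phosphatidylcholine floppase of the same subfamily. Abcc1, Abcc4 and Abcc5 encode multidrug resistance-associated proteins, which export organic anions such as glutathione conjugates (Abcc1) and cyclic nucleotides (Abcc4 and Abcc5). Abcg2 encodes the breast cancer resistance protein, an exporter known from stem cells and epithelia, whereas Abca2 and Abca3 encode lipid transporters of endosomal and lysosomal membranes.

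The 3 Abcb genes are neighbours on mouse chromosome 5, with 0 protein-coding genes between Abcb1a and Abcb1b and 0 between Abcb1b and Abcb4, yet Abcb1a and Abcb1b had different patterns in these cells. Their promoters are therefore shown, as given by RefSeq for GRCm38.p6, from 250 bases before to 50 bases after each start. All 3 lie on the plus strand, at chr5:8566841-8567140 for Abcb1a, chr5:8797897-8798196 for Abcb1b and chr5:8893471-8893770 for Abcb4. Both strands were searched for a set of short motifs, and capitals mark the matches. The GC box was taken as GGGCGG. The CCAAT box was searched by the letters of its name. The motif TATAAA stood for the TATA box. For the E-box the search used CACGTG. The core of the antioxidant response element was taken as TGACNNNGC.
Abcb1a: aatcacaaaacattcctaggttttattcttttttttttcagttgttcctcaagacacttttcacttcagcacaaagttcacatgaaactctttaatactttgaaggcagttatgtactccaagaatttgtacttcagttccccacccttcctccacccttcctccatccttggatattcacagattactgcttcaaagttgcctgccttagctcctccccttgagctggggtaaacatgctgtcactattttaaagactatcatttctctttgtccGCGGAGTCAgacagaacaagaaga
Abcb1b: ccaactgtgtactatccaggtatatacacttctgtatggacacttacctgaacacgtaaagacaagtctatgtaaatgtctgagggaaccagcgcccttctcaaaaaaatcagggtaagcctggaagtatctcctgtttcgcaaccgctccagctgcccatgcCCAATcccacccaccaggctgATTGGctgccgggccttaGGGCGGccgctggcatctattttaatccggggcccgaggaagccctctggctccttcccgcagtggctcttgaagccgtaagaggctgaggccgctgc
Abcb4: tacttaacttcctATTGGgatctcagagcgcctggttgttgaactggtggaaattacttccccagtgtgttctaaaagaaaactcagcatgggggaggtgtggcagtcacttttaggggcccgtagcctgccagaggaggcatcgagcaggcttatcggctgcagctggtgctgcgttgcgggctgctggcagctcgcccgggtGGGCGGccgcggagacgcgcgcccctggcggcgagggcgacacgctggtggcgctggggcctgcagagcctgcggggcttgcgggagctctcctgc
The Abcb1b promoter held a GC box at position -48 and CCAAT boxes at -87 (plus strand) and -66 (minus strand), counted from the start site. The Abcb4 promoter held a GC box at -46 and a CCAAT box at -237. The Abcb1a promoter held neither, and its only match was an antioxidant response core at 27, on the minus strand. Of the 32851 mouse promoters in the same table, 35.7% held the GC box, 37.4% the CCAAT box, 13.6% the TATA box, 12.4% the antioxidant response core and 7.15% the E-box. These are matches of letters and are not evidence of binding. RefSeq promoters were found for 8 of the 9 members.

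Array medians lay between 7.28 and 7.44, and 0 h replicate 5 had the narrowest interquartile range (3.07 against 3.34 to 3.64). The B-lineage list (9 of 10 genes measured) had array means of 11.82 to 12.60, the T and NK cell list (8 measured) 5.92 to 6.39 and the myeloid list (8 measured) 6.32 to 6.82. A list of 32 fibroblast genes, 27 of them measured, stood for the feeders. Its mean was 8.13 ± 0.21 (SD, n = 5) at 0 h, 7.97 ± 0.14 (n = 4) at 6 h, 8.25 ± 0.24 (n = 4) at 12 h, 8.96 ± 0.53 (n = 5) at 24 h and 8.45 ± 0.45 (n = 5) at 48 h, and it was 7.76 to 8.33 on the arrays of the resistant lines. At 24 h, 13 of the 27 fibroblast genes were called higher and 0 lower, with a median log2 change of 0.84. The deposited values carry no detection calls, so which members lie above background is not known. A list of genes restricted to other organs (11 of 14 measured) was taken to show the range of dim probe sets. Its genes averaged 5.46 (Alb) to 8.09 (Apoa2) over the 30 arrays. The means of Abcg2 (6.80), Abcb1a (7.16), Abcb4 (7.17) and Abcb1b (7.34) lay within that range, and those of the other members above it.

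**Figure D1:**
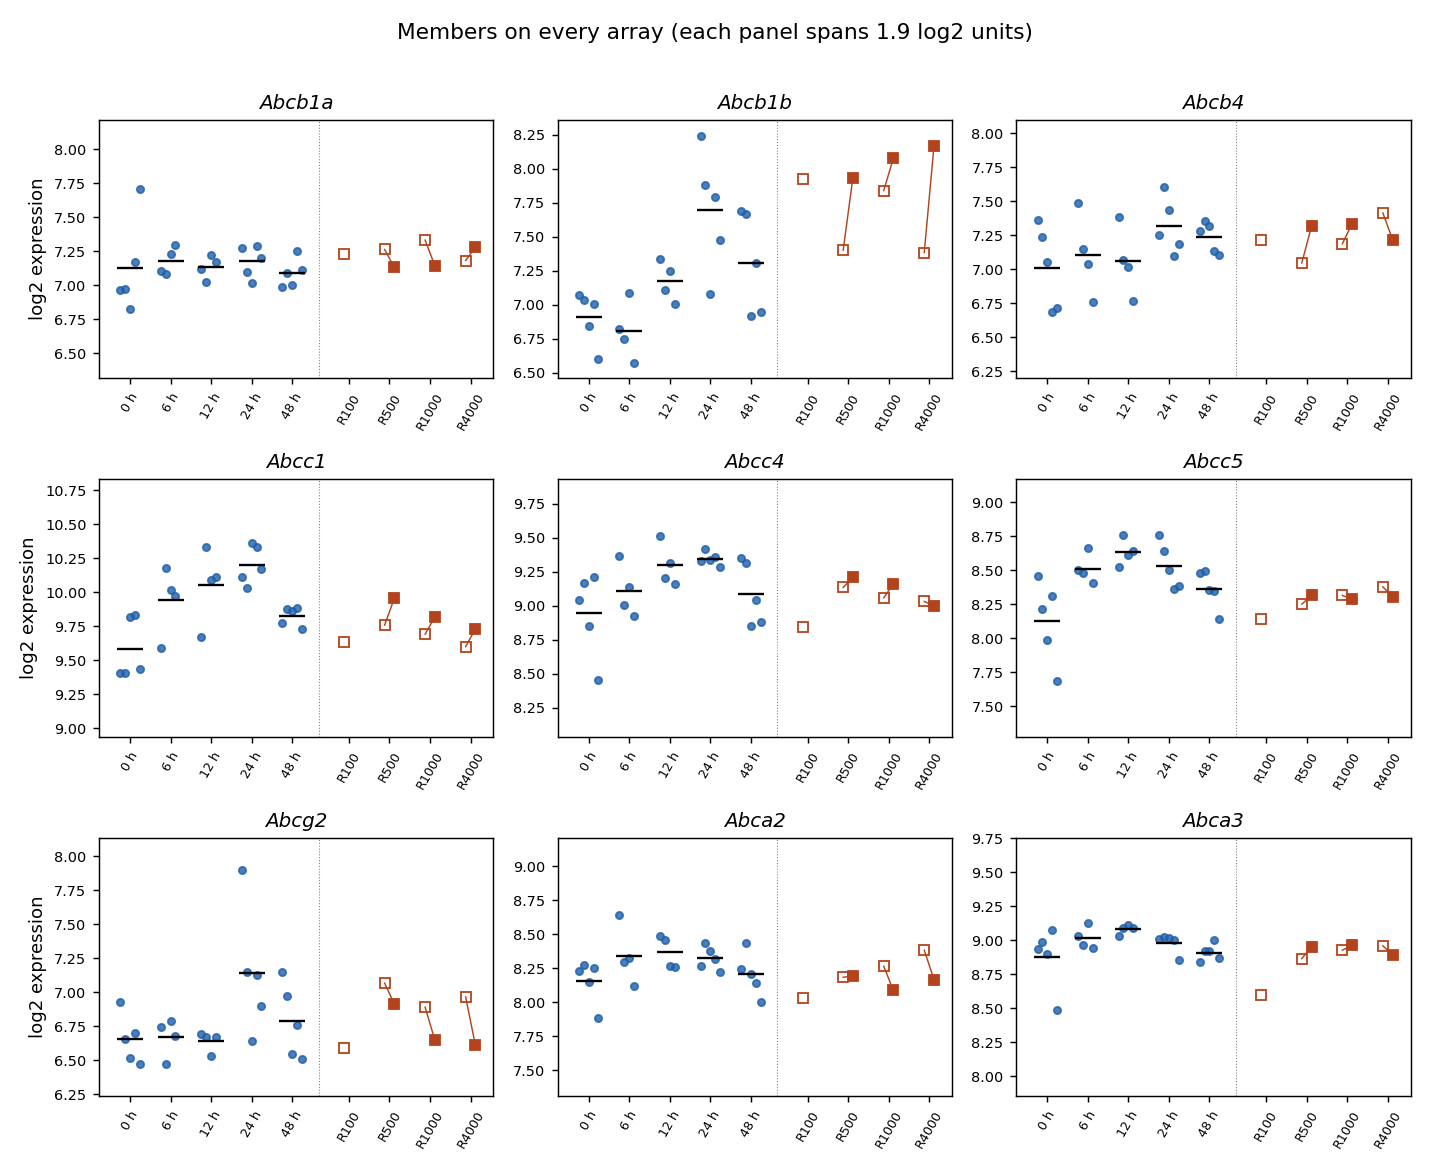
Log2 expression (vertical axis) of the 9 members on each of the 30 arrays. Blue dots are parental arrays by hour of mafosfamide with a black bar at the group mean, and squares are resistant lines, open for untreated and filled for 24 h of drug, with a line joining both arrays of a line. Abcc1 was highest at 24 h (10.03 to 10.36) and lay between 9.60 and 9.95 in every resistant line, whereas Abcb1b lay between 7.38 and 8.16 in the resistant lines and at or under 7.07 in all parental 0 h arrays.

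The first question was whether the transporters changed while parental cells were exposed to the drug. After 24 h all 9 members had a mean above that at 0 h, and 3 of them rose (adjusted p under 0.05 in limma, with Benjamini-Hochberg adjustment over all genes): Abcc1, Abcb1b and Abcc5. In this comparison 6.78% of all genes were called. The median log2 change of the 9 members was 0.40, against -0.04 over all genes. None of the members fell. The members were read on the same arrays, so their signs are not independent. Replicate 5, of narrow range, was the lowest 0 h array for Abcb1b, Abcc4, Abcc5, Abcg2, Abca2 and Abca3 and the highest for Abcb1a.

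Abcc1, the glutathione-conjugate exporter, stood at 9.41, 9.41, 9.82, 9.83 and 9.43 on the parental 0 h arrays. On the 6 h arrays Abcc1 read 9.59, 10.18, 10.01 and 9.98, and on the 12 h arrays 9.67, 10.33, 10.09 and 10.11. On the 24 h arrays Abcc1 read 10.11, 10.03, 10.36, 10.33 and 10.17. Every 24 h array was thus above every 0 h array, while 1 of the 4 arrays at 6 h and 1 of the 4 at 12 h lay within the 0 h range. The group means of Abcc1 were 9.58 ± 0.22 (SD, n = 5), 9.94 ± 0.25 (n = 4), 10.05 ± 0.28 (n = 4) and 10.20 ± 0.14 (n = 5) in the order of time. The 24 h difference of Abcc1 was 0.62 (SE 0.12, 95% interval 0.37 to 0.87, adjusted p = 0.00492 in limma), a 1.54-fold rise. Abcc1 was called at 24 h under all 22 alternative settings, with differences of 0.39 to 0.73. At 48 h the arrays of Abcc1 read 9.77, 9.88, 9.86, 9.88 and 9.73, all below the lowest 24 h array.

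Abcc5, an exporter of cyclic nucleotides, was already at its highest mean by 12 h. On the 0 h arrays Abcc5 read 8.46, 8.21, 7.99, 8.31 and 7.68, and at 6 h it read 8.50, 8.48, 8.66 and 8.40. At 12 h Abcc5 read 8.52, 8.76, 8.61 and 8.64, all above the 0 h range, with a mean of 8.63 ± 0.10 (SD, n = 4) against 8.13 ± 0.30 (n = 5). The 12 h difference of Abcc5 was 0.50 (SE 0.12, adjusted p = 0.0608 in limma) and did not pass the test. At 24 h the arrays of Abcc5 read 8.76, 8.64, 8.50, 8.36 and 8.38, which overlap the 0 h range. The 24 h difference of 0.40 (SE 0.11, adjusted p = 0.0387) passed, and was lost in 11 of 22 alternatives. Without 0 h replicate 5, the array of narrow range, in which Abcc5 was lowest, it was 0.29 (adjusted p = 0.106). The call was also lost without 0 h replicate 3 (adjusted p = 0.0886) and without 24 h replicate 1 (0.0959), 2 (0.0796) or 3 (0.0526).

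Abcc4, another exporter of cyclic nucleotides and of conjugates, had the narrowest spread of the multidrug resistance-associated proteins at 24 h. Its 0 h arrays read 9.05, 9.17, 8.85, 9.21 and 8.46, and its 24 h arrays 9.33, 9.42, 9.34, 9.36 and 9.28. These groups of Abcc4 do not overlap, as was so for Abcc1 and Abcb1b and for 4.57% of all genes, and the difference was 0.40 (SE 0.13, 95% interval 0.14 to 0.66), but with an adjusted p of 0.0564 in limma it did not pass. Abcc4 passed at 24 h in 8 of 22 alternatives, among them the fits without 0 h replicate 1, 2 or 4. At 12 h Abcc4 read 9.51, 9.20, 9.31 and 9.16, a difference of 0.35 (adjusted p = 0.329), and at 48 h it was back at 9.09 ± 0.24 (SD, n = 5) against 8.95 ± 0.31 (n = 5) at 0 h.

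Abcb1b, 1 of the 2 P-glycoprotein genes, had a wide spread at 24 h. On the 0 h arrays Abcb1b read 7.07, 7.03, 6.85, 7.01 and 6.60, and on the 24 h arrays 8.24, 7.88, 7.08, 7.79 and 7.47. The lowest 24 h array only just cleared the 0 h range, while the highest stood more than 1 log2 unit above it. The 24 h difference of Abcb1b was 0.78 (SE 0.18, 95% interval 0.41 to 1.15, adjusted p = 0.0148 in limma), or 1.72-fold. At 6 h Abcb1b read 6.82, 6.74, 7.08 and 6.57 and at 12 h 7.33, 7.11, 7.25 and 7.005, with differences of -0.11 (adjusted p = 0.999) and 0.26 (adjusted p = 0.571). At 48 h Abcb1b read 7.69, 7.67, 6.91, 7.30 and 6.94, with 3 of 5 arrays above the 0 h range.

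Abcg2 was spread over the 24 h arrays in the same order as Abcb1b. Its 24 h arrays read 7.90, 7.15, 6.64, 7.13 and 6.90, against 6.93, 6.66, 6.52, 6.70 and 6.48 at 0 h, so that the groups overlap and replicate 1 stood well above the rest. The difference of Abcg2 was 0.49 (SE 0.16, adjusted p = 0.0669 in limma). At 6 h and 12 h Abcg2 averaged 6.67 ± 0.14 (SD, n = 4) and 6.64 ± 0.07 (n = 4), within 0.02 of the 0 h mean of 6.66 ± 0.18 (n = 5).

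Abcb1a, the other P-glycoprotein gene, did not pass at any time. Its 24 h arrays read 7.28, 7.10, 7.02, 7.28 and 7.20 against 6.96, 6.97, 6.82, 7.17 and 7.71 at 0 h, and the 24 h difference was 0.05 with a 95% interval of -0.19 to 0.28. The highest value of Abcb1a on all arrays was that of 0 h replicate 5. Abcb1a and Abcb1b are close in sequence, and whether probes of one read transcripts of the other was not tested. Abcb4 at 24 h was 7.31 ± 0.20 (SD, n = 5) against 7.01 ± 0.30 (n = 5), a difference of 0.30 (adjusted p = 0.161). The lipid transporters Abca2 and Abca3 had 24 h differences of 0.17 (adjusted p = 0.232) and 0.11 (adjusted p = 0.370), and the arrays of Abca3 at 12 h (9.03, 9.09, 9.11 and 9.09) were the tightest of its parental groups.

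At the other times limma called 0 of the 9 members. At 6 h, where 0.0201% of all genes were called, 2 members had an unadjusted p under 0.05, both higher: Abcc5 (0.38, adjusted p = 0.571) and Abcc1 (0.36, adjusted p = 0.712). At 12 h (0.512% of genes called) 5 members did, all higher: Abcc1 (0.47, adjusted p = 0.108), Abcc4, Abcc5, Abca2 and Abca3. At 48 h (0.251%) Abcb1b alone did, with a difference of 0.39 (adjusted p = 0.404). These comparisons use the same 0 h arrays, so their values are not independent of each other. The shares in brackets are of genes at an adjusted p under 0.05. The share of all genes at an unadjusted p under 0.05 was not counted, so these members cannot be set against it. From 24 h to 48 h 0 members were called by limma (0.105% of genes). This comparison needs no 0 h array but uses the 24 h arrays that gave the rise from 0 h, so it is not independent of that rise. All 9 differences from 24 h to 48 h were below 0, with a median of -0.17 against 0.02 over all genes. In that comparison 3 members had an unadjusted p under 0.05, Abcc1 (-0.38, adjusted p = 0.489), Abcb1b (-0.39, adjusted p = 0.711) and Abcg2 (-0.36, adjusted p = 0.711).

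Arrays of different times that carry the same replicate number in the sample descriptions deviated together to differing degrees. Against 0 h their correlations were 0.31 to 0.77 at 6 h and 0.08 to 0.51 at 12 h. They were 0.13 to 0.34 at 24 h and 0.06 to 0.61 at 48 h, and 0.39 to 0.75 from 24 h to 48 h. A replicate block for this number made more calls. With the block Abcc1, Abcc4 and Abcc5 were called at 12 h, where 708 of all genes were, and Abcb1b at 48 h, where 654 were. With the block at 6 h, Abcc5 rose by 0.44 (adjusted p = 0.0486), where 0.311% of all genes were called. At 24 h 7 members rose with the block, against 23.6% of all genes: Abcc1, Abcb1b and Abcc5, and also Abcc4 (0.40, adjusted p = 0.00286), Abcg2 (0.49, adjusted p = 0.00194), Abcb4 (0.30, adjusted p = 0.0132) and Abca2. Abcb1a and Abca3 were not called. From 24 h to 48 h the block called Abcc1 lower (-0.38, adjusted p = 0.0261), where 1.04% of all genes were called.

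The members differed in how they moved with the fibroblast genes. The fibroblast mean of the 24 h arrays was 9.62, 9.23, 8.21, 8.98 and 8.76, and replicate 3, where it was lowest, also had the lowest Abcb1b (7.08) and Abcg2 (6.64) but the highest Abcc1 (10.36). Over the deviations of the 23 parental arrays from their group means, which share RNA and array between the genes compared, the correlation with the fibroblast mean was 0.81 for Abcb1b and 0.78 for Abcg2. It was -0.23 for Abcc1, 0.31 for Abcc5 and 0.37 for Abcc4. Between these lay Abcb1a (0.30), Abca2 (0.12), Abca3 (0.03) and Abcb4 (-0.12). Abcb1b and Abcg2 correlated with each other at 0.87, whereas Abcb1a and Abcb1b had a correlation of -0.07.

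With the fibroblast mean as a covariate, Abcc1 alone of the members was called at 24 h, where 2.55% of all genes were called. The adjusted difference was 0.73 for Abcc1 (adjusted p = 0.0128), 0.21 for Abcb1b (adjusted p = 0.425) and -0.01 for Abcg2 (adjusted p = 0.966). With both the replicate block and this covariate, 4 members were called at 24 h, against 11.1% of all genes: Abcb4 (0.58, adjusted p = 0.00186), Abcc1 (0.39, adjusted p = 0.0285), Abcb1b (0.36, adjusted p = 0.0410) and Abcc4 (0.42, adjusted p = 0.0466). Abcb1b at 24 h was thus lost in 3 of 22 alternatives, the covariate without the block, the 2 times fitted alone and the fit without the 24 h replicates 1 and 2. Without those replicates, which had the highest fibroblast means, the differences were 0.71 for Abcc1 (adjusted p = 0.00885) and 0.54 for Abcb1b (adjusted p = 0.121). In that fit 557 of all genes were called. The genes whose level over the 23 parental arrays was most like that of Abcb1b were Tagln (r = 0.957), Myl9 (r = 0.954) and Snx7 (r = 0.949). Tagln and Myl9 belong to the fibroblast list and encode proteins of the contractile apparatus. For Abcc1 they were Tmbim1 (r = 0.941), Nucb1 (r = 0.909) and Arhgap21 (r = 0.909), and for Abcc5 Lxn (r = 0.908), Polk (r = 0.902) and Tbc1d9b (r = 0.899), none of them on that list.

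**Figure D2:**
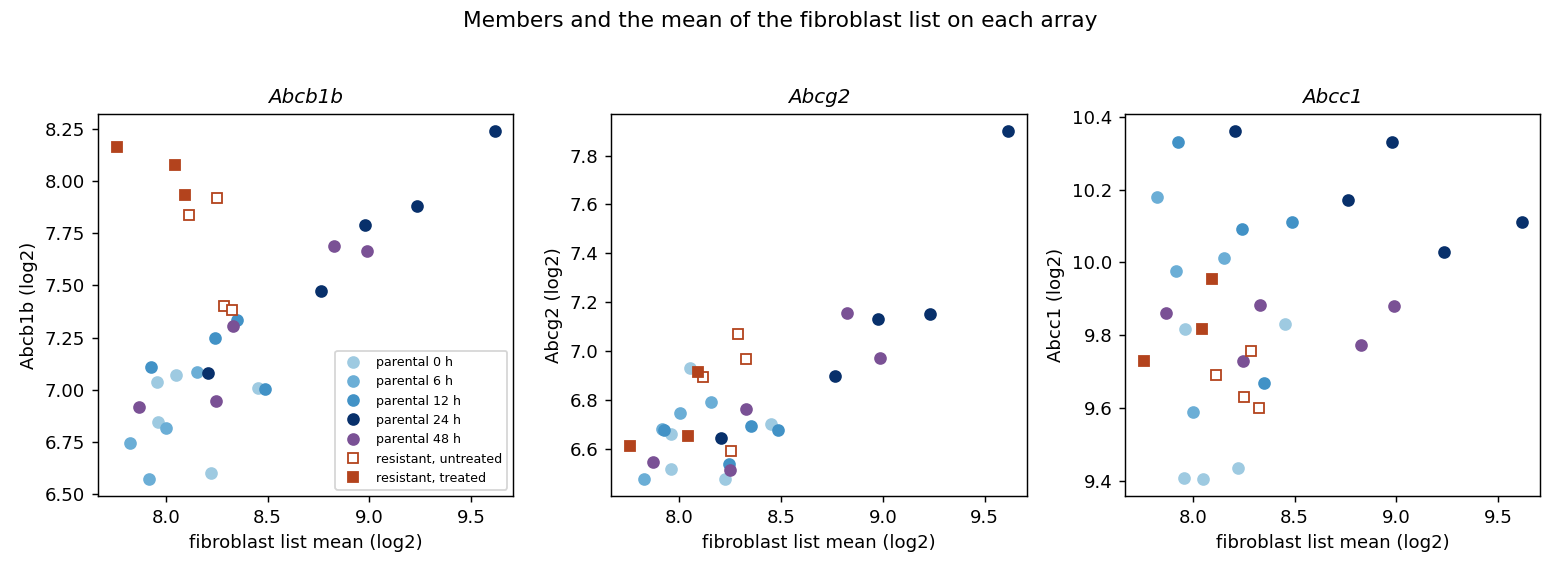
Log2 expression of Abcb1b, Abcg2 and Abcc1 (vertical axes) against the mean log2 level of 27 fibroblast genes on the same array (horizontal axis). Dots are parental arrays coloured by time and squares are resistant lines, open for untreated and filled for treated. Parental Abcb1b and Abcg2 lie along a rising band, the treated lines stand off it for Abcb1b (7.93 to 8.16 at fibroblast means of 7.76 to 8.09), and Abcc1 shows no such band.

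The second question was whether the resistant lines carried more transporter RNA without drug. Abcb1b was the only member whose 4 untreated resistant arrays all lay outside the range of the 5 parental 0 h arrays. It read 7.92 in R100, 7.40 in R500, 7.84 in R1000 and 7.38 in R4000, against 7.07 at most in parental cells. The mean difference was 0.73 (SE 0.14, 95% interval 0.42 to 1.03), or 1.65-fold, and with an adjusted p of 0.115 it did not pass the test in limma. Over 16 alternatives the difference of Abcb1b lay between 0.63 and 0.81 and the adjusted p between 0.0526 and 0.501, so it passed in none. The fibroblast mean on these 4 arrays was 8.25, 8.29, 8.12 and 8.33, inside the parental 0 h range of 7.96 to 8.45, and with that mean as a covariate the difference was 0.77 (adjusted p = 0.152). Among all genes, 3.65% had groups that do not overlap in this comparison and 0.0752% were called.

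The levels of Abcb1b did not follow the order of resistance. R100 and R1000 were the highest and R500 and R4000 the lowest, and the slope over the order parental, R100, R500, R1000, R4000 was 0.18 per step (SE 0.07, adjusted p = 0.881 in limma). No gene was called for a slope (0% of all genes), and 2 members, Abcb1b and Abcg2 (0.09 per step, adjusted p = 0.881), had an unadjusted p under 0.05. Abcg2 read 6.59 in R100, 7.07 in R500, 6.89 in R1000 and 6.97 in R4000, and its mean difference from parental cells was 0.22 (95% interval -0.04 to 0.49, adjusted p = 0.782).

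Over all members, 8 of 9 differences between untreated lines and parental 0 h cells were above 0, with a median of 0.12 against -0.01 over all genes. Of the slopes, 9 of 9 were above 0, with a median of 0.05 against -0.00321. These signs share the 0 h arrays and are not independent. Replicate 5, of narrow range, was the lowest 0 h array for Abcc4 (8.46), Abcc5 (7.68), Abca2 (7.88) and Abca3 (8.48), among others. No member other than Abcb1b had an interval of the difference that excludes 0. Abcc1, called at 24 h of drug in parental cells, read 9.63, 9.76, 9.69 and 9.60 in R100, R500, R1000 and R4000, all within the parental 0 h range, with a difference of 0.09 (95% interval -0.16 to 0.34). Abcb1a had a difference of 0.12 (95% interval -0.21 to 0.46) and Abcb4 of 0.20 (-0.12 to 0.53). Those of Abcc4 (0.07), Abcc5 (0.14), Abca2 (0.06) and Abca3 (-0.04) were smaller than the SD of the same gene at 0 h. In limma 0 members were called, and Abcb1b was the only member with an unadjusted p under 0.05.

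**Figure D3:**
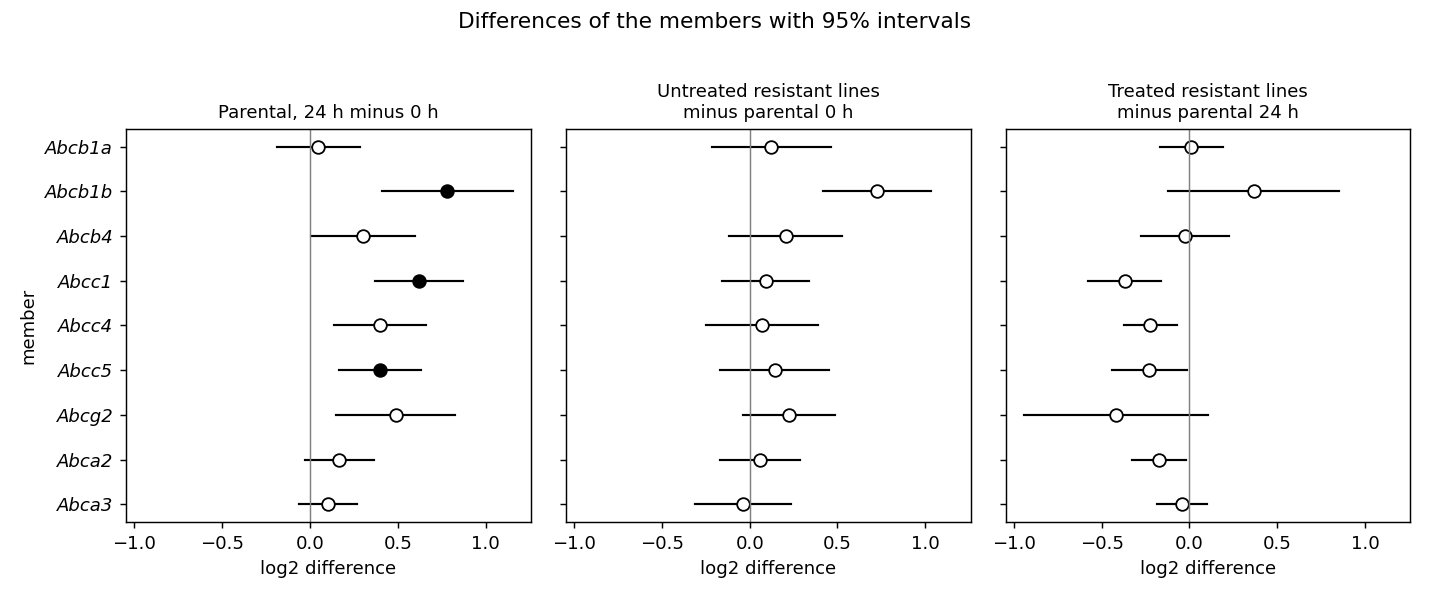
Log2 differences (horizontal axes) of the 9 members in 3 comparisons, with 95% intervals from limma. Filled circles mark an adjusted p under 0.05 over all genes, reached at 24 h in parental cells by Abcb1b (0.78), Abcc1 (0.62) and Abcc5 (0.40) and by no member in the comparisons with resistant lines. Of the members of the untreated lines, Abcb1b (0.73) alone has an interval that does not include 0.

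The third question was how the resistant lines responded to 24 h of 750 nM mafosfamide. Abcb1b was higher after drug in all 3 lines measured, going from 7.40 to 7.93 in R500, from 7.84 to 8.08 in R1000 and from 7.38 to 8.16 in R4000. The mean change was 0.52 (SE 0.23, 95% interval 0.03 to 1.00, adjusted p = 0.9997 in limma), which did not pass. Abcb1b was the only member with an unadjusted p under 0.05 in this comparison, in which 0 members and 0.0301% of all genes were called. The fibroblast mean went the other way on the same arrays, from 8.29 to 8.09 in R500, from 8.12 to 8.05 in R1000 and from 8.33 to 7.76 in R4000, and 2 of the 27 fibroblast genes had a change above 0. With that mean as a covariate the change of Abcb1b was 0.69 (adjusted p = 0.630). In R4000, the step with the largest change of Abcb1b (0.78), Abcg2 had its largest change in the opposite direction (-0.36).

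Abcg2 was lower after drug in all 3 lines, from 7.07 to 6.92 in R500, from 6.89 to 6.65 in R1000 and from 6.97 to 6.61 in R4000. Its mean change was -0.25 (95% interval -0.74 to 0.24). Abcc1 was higher in all 3, from 9.76 to 9.95, from 9.69 to 9.82 and from 9.60 to 9.73, with a mean change of 0.15 (95% interval -0.13 to 0.44). No other member moved the same way in all 3 lines. Abcb1a changed by -0.13, -0.19 and 0.10 and Abcc5 by 0.07, -0.03 and -0.07 in R500, R1000 and R4000.

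The difference between the responses of resistant and parental cells was below 0 for all 9 members, with a median of -0.30 against 0.02 over all genes. It subtracts the parental change at 24 h, which was above 0 for all 9 members, so its sign partly restates that rise. The change in the lines themselves was above 0 for 5 of 9 members, with a median of 0.02. For the difference in response limma called 0 members and 0% of all genes, and 3 members had an unadjusted p under 0.05. These were Abcc1 (-0.47, 95% interval -0.83 to -0.11, adjusted p = 0.468), Abcg2 (-0.74, adjusted p = 0.523) and Abca2 (-0.30, adjusted p = 0.620). With the fibroblast mean as a covariate the difference became 0.03 for Abcg2, and it was -0.59 for Abcc1 (adjusted p = 0.964). For Abcb1b the difference in response was -0.26 (95% interval -0.88 to 0.35), and with the fibroblast covariate it was 0.42 (95% interval -0.21 to 1.04, adjusted p = 0.964), with the sign turned. Both intervals include 0, so neither a smaller nor a larger rise in the resistant lines was shown.

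At 24 h of the same dose, the treated resistant lines and the parental cells could also be set side by side. Abcc1 read 9.95, 9.82 and 9.73 in treated R500, R1000 and R4000, below all 5 parental 24 h arrays (10.03 to 10.36), a difference of -0.37 (SE 0.09, 95% interval -0.57 to -0.16, adjusted p = 0.102). Abcc4 read 9.21, 9.16 and 8.999 and Abcc5 8.32, 8.29 and 8.30, each also below all parental 24 h arrays, with differences of -0.22 (adjusted p = 0.161) and -0.23 (adjusted p = 0.307). The treated lines also lay below the parental arrays for Abca2 (-0.18, adjusted p = 0.267). These 4 members are those whose groups do not overlap, against 11.8% of all genes, and they are also the 4 with an unadjusted p under 0.05. In limma 0 members were called, against 0.647% of all genes. Without the 24 h replicates 1 and 2 of highest fibroblast mean, Abcc1 passed (-0.45, adjusted p = 0.0356 in limma). That fit, chosen after seeing the data, called 437 of all genes, 350 of them lower, against 129 in the main fit.

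The groups of the other 5 members overlap in this comparison. Abcb1b in the treated lines read 7.93, 8.08 and 8.16, within the parental 24 h range of 7.08 to 8.24 and above 4 of the 5 arrays, with a difference of 0.37 (95% interval -0.12 to 0.85, adjusted p = 0.475 in limma). The parental arrays of highest Abcb1b had fibroblast means of 9.62 and 9.23, whereas the treated lines had 7.76 to 8.09, below all 5 parental 24 h arrays (8.21 to 9.62). With the fibroblast mean as a covariate Abcb1b was called higher in the treated lines (1.11, 95% interval 0.75 to 1.48, adjusted p = 0.0250), where 0.256% of all genes were called. As the fibroblast means of these groups do not overlap, that value rests on the fitted line between them. Abcb1a had a difference of 0.01 (95% interval -0.17 to 0.19) in the same comparison.

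Other ABC transporters of the mouse were set beside the members, from a list of 44 genes of which 42 were measured. At 24 h in parental cells 2 of the 42 rose and 1 fell, a share of 7.14% beside the 6.78% of all genes called. Their median change was -0.08, against 0.40 for the 9 members and -0.04 over all genes. The organ-restricted (-0.09), myeloid (-0.09) and T and NK cell (-0.19) lists also had medians below 0 in this comparison, and the fibroblast list 0.84. Whether low signal sets the median of the 42 was not tested. Abcb10, a mitochondrial transporter needed for haem synthesis in red cell precursors, rose by 0.52 (SE 0.11, adjusted p = 0.0103). Abca1, the exporter of cholesterol to apolipoprotein A-I, rose by 0.71 (SE 0.18, adjusted p = 0.0259), from 7.33 ± 0.32 (SD, n = 5) to 8.04 ± 0.36 (n = 5). Abca1 was lowest at 24 h in replicate 3 (7.48), the array of lowest fibroblast mean, and with the fibroblast covariate its difference was 0.22 (adjusted p = 0.499), against 0.50 for Abcb10 (adjusted p = 0.0751). Abca4, the retinal transporter, fell by 0.26 (adjusted p = 0.0471), and differed by -0.22 with the covariate (adjusted p = 0.278). Means of Abca4, 6.32 at 0 h and 6.06 at 24 h, lay within the range of the organ-restricted genes. On the 3 arrays of treated resistant lines Abca1 stood at 7.12 ± 0.10 (SD, n = 3), a difference from parental 24 h cells of -0.91 (adjusted p = 0.0596). In the untreated resistant lines limma called 0 of the 42, with 1 higher and 1 lower at an unadjusted p under 0.05, and in the treated lines against parental 24 h cells it called 0, with 3 higher and 1 lower at that level.

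**Figure D4:**
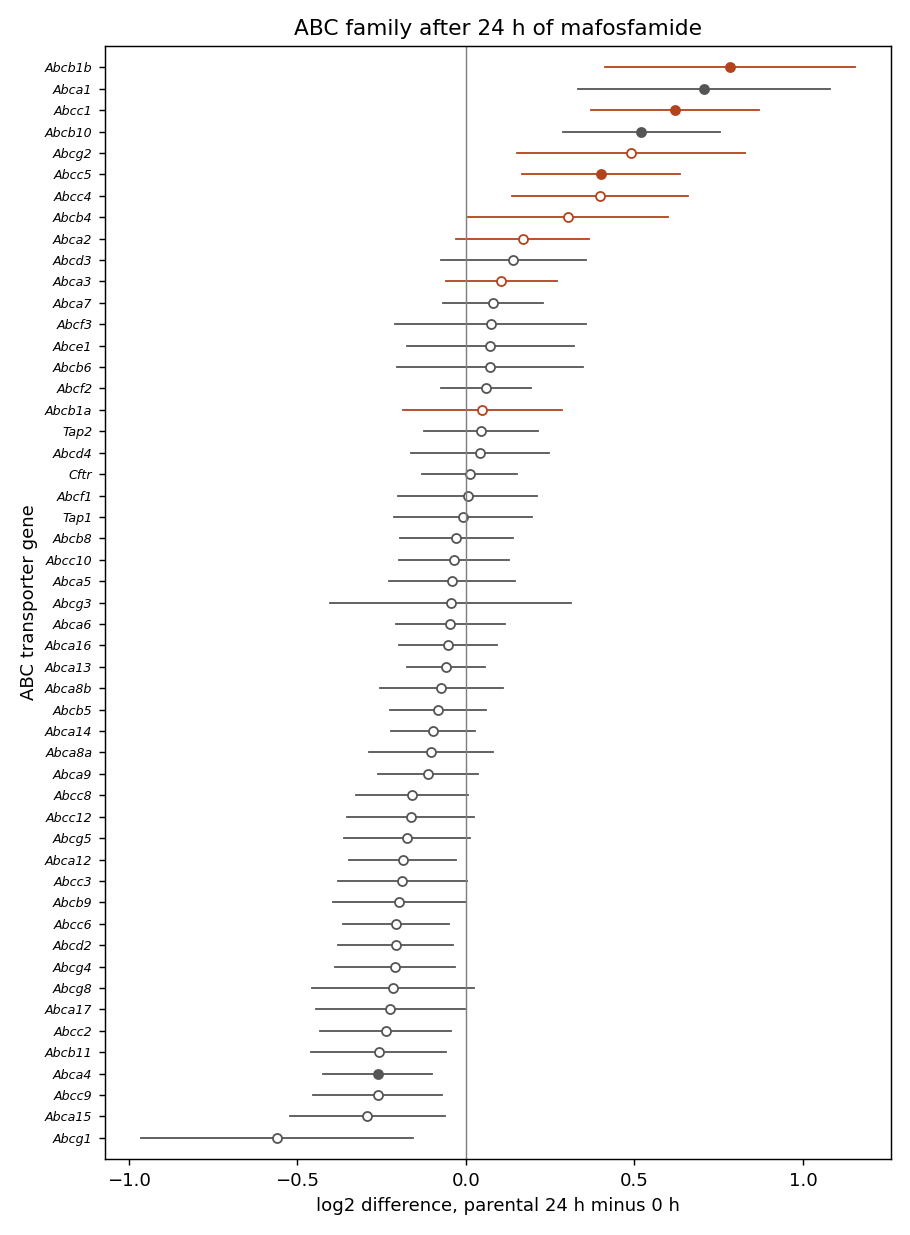
Log2 difference between parental cells at 24 h and 0 h (horizontal axis) for the 9 members (red) and 42 other ABC transporters (grey), sorted by size, with 95% intervals from limma. Filled circles mark an adjusted p under 0.05, and Abcb1b (0.78), Abca1 (0.71), Abcc1 (0.62) and Abcb10 (0.52) lie at the upper end.

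Of 10 genes known to regulate such transporters, 9 were measured. Nfe2l2, which encodes the oxidative stress factor NRF2, rose by 0.55 at 24 h (adjusted p = 0.0166), and Ahr, the aryl hydrocarbon receptor, rose by 0.41 (adjusted p = 0.0452). Nfe2l2 averaged 11.47 ± 0.38 (SD, n = 5) at 0 h, 12.05 ± 0.12 (n = 4) at 12 h and 12.02 ± 0.12 (n = 5) at 24 h, and 11.48 ± 0.08 (n = 4) in the untreated resistant lines. Its 0 h arrays read 10.92 to 11.83 and its 24 h arrays 11.93 to 12.22. For Ahr they read 7.53 to 7.99 and 7.84 to 8.63, which overlap. Whether either rise goes with the feeder share was not tested. The other 7 did not pass at 24 h, among them Keap1 (0.08), the repressor of NRF2, Nr1i2 (-0.10), the pregnane X receptor, and Hif1a (0.12). In the untreated resistant lines limma called 0 of the 9, and 0 had an unadjusted p under 0.05. In treated lines against parental 24 h cells it called 0, with Nfe2l2 (-0.36, adjusted p = 0.0796) and Ahr (-0.74, adjusted p = 0.0695) lower and Nr1i3 (0.32, adjusted p = 0.0920) higher at an unadjusted p under 0.05.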

How the data were processed

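Transcript levels were measured in 30 cultures, 1 array each. The authors quantified the arrays by robust multi-array averaging (justRMA, affy 1.40.0), and the deposited values are log2 expression of 34760 probe sets; RMA, affy and the mm9 build are also named in the submitters' processing notes. This procedure forces a common distribution on all arrays, so a change in total RNA is not visible, and small differences at low signal are compressed. Of 22961 probe sets in the platform annotation 21640 had 1 symbol, which gave 19937 genes, each read from its brightest probe set (954 genes had several). Columns of per-sample values left unused numbered 0. Arrays have no read depth, and their number limits the precision.

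Groups came from the sample labels. Comparisons were fitted with limma 3.58.1 in R 4.3.3 (lmFit and eBayes) and adjusted by the Benjamini-Hochberg method over all genes, and a gene was called at an adjusted p under 0.05. Shares of genes called use this threshold, also where members are counted at an unadjusted p. A first fit held the 23 parental arrays, another the 4 untreated lines and the 5 arrays at 0 h, and another the 3 treated lines and the 5 parental arrays at 24 h. Responses were fitted over 16 arrays, each line having a term of its own. Nothing says that replicate arrays came from separate tumours, so p-values of the parental times measure the spread between cultures of 1 line. In fits with resistant lines the spread also takes in differences between these lines, or between their responses. Those fits treat the lines as replicates, though the lines are not independent derivations. Lines had 1 array each and are not tested singly. The fits were also run on simulated data with independent noise on each array. That does not test them under paired replicates or a varying share of feeder RNA.

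The members are all named. Genes of the lists are named where they passed the test, and the 3 genes most like each called member by Pearson correlation over the parental arrays. Members and lists were chosen with earlier results of these data known. Descriptions and titles of the 6 h and 12 h arrays carry different replicate numbers. By the description number, deviations from group means correlated at 0.31 or more for every number at 6 h against 0 h. They did so at 0.13 or more at 24 h against 0 h and 0.39 or more at 48 h against 24 h. This number was taken to pair those arrays. At 12 h and 48 h against 0 h the lowest were 0.08 and 0.06, but the highest, 0.51 and 0.61, exceeded the 0.34 at 24 h. The 24 h arrays were thus not shown to be better paired than those of 12 h and 48 h. Alternatives covered centring, filters, array weights, the choice of arrays, the block and a fibroblast covariate; the block with that covariate, and leaving out the 24 h replicates 1 and 2, were chosen after seeing the data.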

Additional observations from a re-analysis of the deposited data

Results flagged for a closer look

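Of 45 groups of 4 or 5 arrays tested for an array far from the others, 2 were picked out, and chance alone picks out about 1 in 20. Abcg2 on parental 12 h replicate 3 was 6.54, with the nearest array at 6.67, a gap of 0.877 of the whole range of that group. Abca3 on parental 24 h replicate 5 was 8.85, with the nearest at 9.003, a gap of 0.883 of the range. Neither Abcg2 at 12 h nor Abca3 at 24 h passed the test.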

How the results depend on the processing

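No call of a member changed direction under any alternative. Uncalled differences did change sign with the fibroblast covariate, among them the difference in response of Abcb1b, from -0.26 to 0.42. For Abcg2 the negative difference in response became 0.03, and the rise at 24 h became -0.01. The untreated resistant lines, the slope, the response of the lines and the difference in response gave 0 calls of members under every alternative run. Counts of members are given next, with the number of all genes called under the same setting in brackets. At 24 h 3 members were called (1351 genes). The count was 1, Abcc1, with the fibroblast covariate (509 genes), with the 2 times fitted alone (122) and without the 24 h replicates 1 and 2 (557). It was 7 with a replicate block for the description number (4711 genes) and 6 with the title number in its place (2726). With the description block and the fibroblast covariate it was 4 (2213 genes). When each replicate was left out it was 2 to 5 (524 to 2678 genes). It was 5 without 0 h replicate 1 (2426 genes). It was 2 without 0 h replicate 3 (524 genes) or 5 (625) or 24 h replicate 1 (739) or 2 (731). At 6 h, with 0 called (4 genes), the count was 1 with the description block (62 genes). It was 2, Abcc1 and Abcc5, with the block and the fibroblast covariate (114 genes). At 12 h 0 were called (102 genes). The count was 1, Abcc5, with housekeeping centring (164 genes), the fibroblast covariate (198), the dimmest genes left out (132) or the block for the title number (115). It was 2 with array weights (279 genes) and 3, Abcc1, Abcc4 and Abcc5, with the description block (708). With the block and the covariate it was 5 (1579 genes), and 0 to 1 when each replicate was left out (43 to 179). At 48 h it was 1, Abcb1b, with the description block (654 genes), against 0 (50 genes). With the block and the covariate it was also 1, Abcb4 (1501 genes). From 24 h to 48 h it was 2, Abcc1 and Abcc4, both lower, with array weights (700 genes). It was 1 with the description block (208 genes), against 0 (21 genes). In treated lines against parental 24 h cells 0 were called (129 genes). The count was 1, Abcb1b, higher, with the fibroblast covariate (51 genes). It was 1, Abcc1, lower, with array weights (927 genes) and without the 24 h replicates 1 and 2 (437). The causes were not tested. Each member has 1 probe set, so averaging probe sets left its own values as they were. Median and housekeeping centring moved the median gene at 24 h by 0.05 and -0.02. With 3 or 4 lines of 1 array each, the intervals of the resistant lines are wide, and a p that missed the threshold does not show equal levels.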

Other observations

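Among the parental replicates some members moved more with the mean of the B-lineage list than with that of the fibroblast list. Over the deviations of the 23 parental arrays from their group means, which share RNA and array, the correlation with the mean of 9 B-lineage genes was 0.84 for Abcb4, 0.79 for Abca2 and 0.75 for Abcc4, and -0.62 for Abcc1. It was 0.50 for Abcb1b and 0.47 for Abcc5. Much of the range of that list came from Ms4a1, which encodes the surface marker CD20 and read 6.88 to 12.41 over the 30 arrays, whereas Pax5, the B-lineage transcription factor, read 11.50 to 12.05. These correlations are therefore not shown for B-lineage genes at large. Abcb4, the phosphatidylcholine floppase, read 7.36, 7.23, 7.06, 6.69 and 6.72 at 0 h and 7.48, 7.15, 7.04 and 6.76 at 6 h. The correlation was 0.81 between Abcc4 and Abca2, 0.74 between Abcb4 and Abca2 and 0.71 between Abcc5 and Abca3.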
